A study of Mus musculus with 12 samples.

Results

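The genes described are Itgb1, Itgb3 and Itgb5, which encode the integrin beta chains β1, β3 and β5, and Itgbl1, which encodes a protein related to integrin beta chains. They were chosen by name, with no threshold on their values but with earlier results of these data known. They are 4 of the 420 genes listed for a targeted RNA panel of ECM and cell adhesion genes. RNA was taken from mouse pancreatic stellate cells (PSCs), the cells of the pancreas that become matrix-producing myofibroblasts, in 4 groups of 3 libraries named A, B and C. The groups were PKN2 WT PSCs with vehicle, PKN2 KO PSCs with vehicle, WT PSCs with 5 ng/ml TGF-β1 and PKN2 KO PSCs with 5 ng/ml TGF-β1, each harvested after 72 h. By the study's methods the PSCs came from the pancreas of a Rosa26CreERT2 PKN2 fl/fl mouse on a C57BL/6 background, were immortalised with SV40 large T and lost PKN2, a protein kinase, through 4-hydroxytamoxifen. All 4 groups therefore share the floxed alleles, the CreERT2 gene and SV40 large T, and what the WT cells were given in place of 4-hydroxytamoxifen is not given in the sources used here. Cre was expressed from Rosa26, a locus active in most cell types, and the methods describe 1 isolation from 1 pancreas, whereas the series' design text speaks of 3 lines per genotype, which no label ties to the letters. The methods call replicates of cell culture experiments biological, but no label ties a letter to a culture, so the p-values measure the spread between these libraries, which may be technical.

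Between 1074095 and 1473153 reads per library fell on the panel. Pkn2 itself is not among the genes listed, so its deletion could not be checked here. All 7 fibroblast or stellate cell markers examined (Col1a1, Col1a2, Col3a1, Dcn, Lum, Sparc and Postn) were measured, and their summed normalised count lay between 227000 and 508800 in every library. Over the 4 groups, the sums of 7 epithelial markers lay between 5.86 and 60.2, those of 5 endothelial markers between 9.44 and 39.5 and those of 8 leukocyte markers between 5.77 and 33.9, with Itgal at 0 in all 12 libraries. Each value below is a sum over a culture, in which fewer cells that express a gene and less RNA per cell cannot be told apart.

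Integrins are receptors made of 1 alpha and 1 beta chain that join the matrix outside a cell to the actin cytoskeleton inside it. The β1 chain has many alpha partners and binds collagens, laminins and fibronectin, whereas β3 and β5 pair with αv and bind vitronectin, fibronectin, osteopontin and other proteins with an RGD sequence. Integrins with αv can also release active TGF-β from its latent complex, and cells pull on the matrix through receptors of this family. The protein made from Itgbl1 has EGF-like repeats like those of beta chains but lacks the membrane-spanning and cytoplasmic parts, and is not known to form a receptor with an alpha chain.

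In mm10, all 4 genes are protein coding and lie on the forward strand in the GENCODE M21 annotation. Itgb1 (ENSMUSG00000025809) spans chr8:128685654-128733200, Itgb3 (ENSMUSG00000020689) spans chr11:104608000-104670476, Itgb5 (ENSMUSG00000022817) spans chr16:33829665-33949338 and Itgbl1 (ENSMUSG00000032925) spans chr14:123659971-123975618. The 250 bases before the start of Itgb1 and of Itgb5 are shown from RefSeq (GRCm38.p6, forward strand, 5′ to 3′), because Itgb1 was called higher with TGF-β1 and Itgb5 was not, and the study followed reporters driven by TEAD and SMAD factors. Capitals mark the letters CATTCC or GGAATG, the core of a TEAD motif on either strand, and CAGAC or GTCTG, a SMAD motif on either strand.
Itgb1, chr8:128685404-128685653: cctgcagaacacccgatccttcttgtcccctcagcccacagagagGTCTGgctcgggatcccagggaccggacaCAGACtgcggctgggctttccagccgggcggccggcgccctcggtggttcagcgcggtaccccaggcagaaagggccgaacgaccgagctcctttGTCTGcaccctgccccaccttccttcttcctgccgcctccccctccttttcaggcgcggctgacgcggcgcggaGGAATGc
Itgb5, chr16:33829415-33829664: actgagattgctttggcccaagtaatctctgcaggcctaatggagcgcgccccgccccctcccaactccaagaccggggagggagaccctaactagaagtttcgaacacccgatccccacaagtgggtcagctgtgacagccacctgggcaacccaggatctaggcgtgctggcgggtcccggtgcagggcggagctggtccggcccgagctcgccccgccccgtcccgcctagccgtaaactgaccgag
The Itgb1 window holds GGAATG at bases -7 to -2 from the start, GTCTG at -205 to -201 and at -81 to -77, and CAGAC at -176 to -172. The Itgb5 window and the window listed for Itgbl1 hold neither motif. The Itgbl1 window, chr14:123659890-123660139, precedes the RefSeq start but runs past the GENCODE start of that gene at 123659971. The TEAD letters occur in 12.6% and the SMAD letters in 42.2% of the 32851 RefSeq promoter windows of this length, so the SMAD letters are common in such windows. These matches describe letters in a window and are not measured sites. The windows shown were picked by the calls of their genes in these data, and a link of motif to response was not tested. Itgb3 was not matched in the table of promoters.

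The values below are normalised counts, which the authors made by dividing a library's reads per gene by a factor from reference genes. One read was worth between 0.676 and 1.37 normalised counts, by library, least in the B library and most in the A library of each group. Log2 fold changes are those of limma on log2(normalised count + 1), fitted over 12 libraries and the 238 genes that reached a normalised count of 10 in 3 or more libraries, with Benjamini-Hochberg adjustment over these 238 genes. All 4 genes passed this minimum. Amplicons differ in yield, so levels were compared between groups and not between genes.

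**Figure D1:**
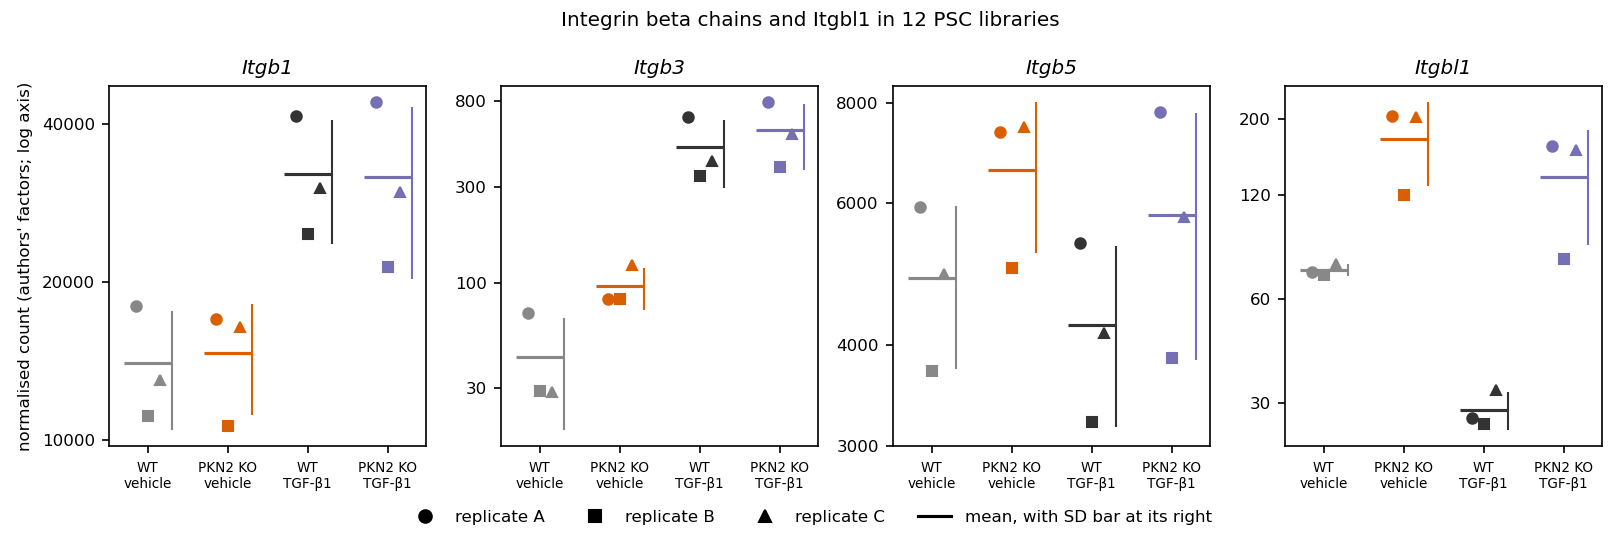
Normalised counts (vertical log axes, authors' factors) of Itgb1, Itgb3, Itgb5 and Itgbl1 in the 3 libraries of each of the 4 groups, with symbols for replicates A, B and C, a horizontal line at the group mean and a bar of 1 SD at its right. Itgb1 and Itgb3 libraries with TGF-β1 sit above all vehicle libraries, Itgbl1 libraries of PKN2 KO PSCs sit above those of WT PSCs under the same treatment, and the Itgb5 groups overlap.

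The first question was how PKN2 deletion, TGF-β1 and both together altered the receptor chains. TGF-β1 raised Itgb1, the common beta chain of collagen, laminin and fibronectin receptors, in both genotypes, and the genotypes overlapped under both treatments. In WT PSCs with vehicle, the normalised counts of Itgb1 in replicates A, B and C were 18026, 11123 and 13002. With vehicle, PKN2 KO PSCs had 17008, 10641 and 16405. These 2 groups overlapped over most of their range, and the B library was the lowest in each. With TGF-β1 the counts were 41531, 24747 and 30230 in WT PSCs. PKN2 KO PSCs with TGF-β1 had 44024, 21354 and 29777. Every library with TGF-β1 was above every library with vehicle, and groups were likewise apart, in either direction, for 55.9% of the genes tested in WT and 52.9% in PKN2 KO PSCs. Within the groups with TGF-β1, the A library was the highest and the B library the lowest of its group. These orders follow in part from the factors: as a share of the reads on the panel, C was the lowest in WT with TGF-β1 (2.16%, against 2.29% for B).

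The group means of Itgb1 were 14050 ± 3569 (SD, n = 3) in WT with vehicle, 14685 ± 3515 in PKN2 KO with vehicle, 32169 ± 8558 in WT with TGF-β1 and 31718 ± 11459 in PKN2 KO with TGF-β1. Itgb1 was therefore 2.28-fold higher with TGF-β1 in WT PSCs (log2 fold change 1.19, adjusted p = 0.00398, limma) and 2.11-fold higher in PKN2 KO PSCs (log2 fold change 1.08, adjusted p = 0.00852, limma). Of all genes tested, 23.9% were called higher with TGF-β1 in WT PSCs and 19.7% in PKN2 KO PSCs, so a call in this direction was common on the panel. The log2 fold change of PKN2 KO against WT was 0.06 in vehicle (95% interval -0.59 to 0.72, adjusted p = 0.909, limma) and -0.05 with TGF-β1 (-0.70 to 0.60, adjusted p = 0.947), and the former turned to -0.12 with TMM factors and to -0.17 with median-of-ratios factors. Neither genotype comparison of Itgb1 passed the threshold.

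Itgb3, whose β3 chain with αv forms the classical vitronectin receptor, had the largest response to TGF-β1 of the 4 genes. The normalised counts of Itgb3 in replicates A, B and C were 70.8, 29.1 and 28.6 in WT PSCs with vehicle, from 60, 43 and 29 reads. PKN2 KO PSCs with vehicle had 83.2, 82.7 and 121.9, from 71, 117 and 115 reads. The A library of WT stood well above B and C, and was still below the lowest PKN2 KO library, a separation seen in either direction for 32.4% of the genes tested. With TGF-β1 the counts rose to 670.3, 340.6 and 404.5 in WT PSCs. The counts in PKN2 KO PSCs with TGF-β1 were 790.6, 378.3 and 550.5. All 6 libraries with TGF-β1 lay above all 6 with vehicle, and with TGF-β1 the genotypes overlapped. TGF-β1 and vehicle libraries were apart, in either direction, for 55.9% of the genes tested in WT and 52.9% in PKN2 KO PSCs.

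The means of Itgb3 were 42.8 ± 24.2 (SD, n = 3) in WT with vehicle, 95.9 ± 22.5 in PKN2 KO with vehicle, 472 ± 175 in WT with TGF-β1 and 573 ± 207 in PKN2 KO with TGF-β1. The rise with TGF-β1 was 11.3-fold in WT PSCs (log2 fold change 3.50, 95% interval 2.70 to 4.31, adjusted p = 1.60e-06, limma) and 5.76-fold in PKN2 KO PSCs (log2 fold change 2.53, adjusted p = 5.23e-05, limma). In vehicle, PKN2 KO PSCs had 2.39-fold more Itgb3 than WT PSCs (log2 fold change 1.25 with a standard error of 0.37, 95% interval 0.45 to 2.06, adjusted p = 0.038, limma). With TGF-β1 the log2 fold change between genotypes was 0.28 (-0.53 to 1.08, adjusted p = 0.719). The difference between the 2 genotype effects, an interaction of -0.98 on the log2 scale (-2.11 to 0.16), had an unadjusted p of 0.087 and an adjusted p of 0.548 by limma, so a smaller response in PKN2 KO PSCs was not called.

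The higher Itgb3 level in PKN2 KO PSCs with vehicle was near the threshold. Its exact 95% Poisson intervals were 19.4 to 41.6 reads for the lowest WT library and 45.8 to 77.2 reads for the highest, and they cover counting error only. With TMM factors the log2 fold change was 1.07 (adjusted p = 0.052, limma), and by edgeR's quasi-likelihood test it was 1.19 (adjusted p = 0.061). The call was lost without WT vehicle replicate B (1.05, adjusted p = 0.112) or C (1.04, adjusted p = 0.162) and without PKN2 KO vehicle replicate A (1.34, adjusted p = 0.080), B (1.35, adjusted p = 0.065) or C (1.07, adjusted p = 0.154). It was also lost, at 1.25, without replicate C with TGF-β1 of either genotype (adjusted p = 0.060 for each), and it stood at 1.68 (adjusted p = 0.00369) without WT vehicle replicate A.

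Itgb5 encodes β5, another partner of αv, which with αv binds vitronectin. The normalised counts of Itgb5 in replicates A, B and C were 5933, 3711 and 4903 in WT PSCs with vehicle. With vehicle, PKN2 KO PSCs had 7366, 4986 and 7470. With TGF-β1 they were 5352, 3213 and 4141 in WT and 7791, 3854 and 5768 in PKN2 KO PSCs. The groups overlapped in all 4 comparisons, and the B library was the lowest of every group.

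The means of Itgb5 were 4849 ± 1112 (SD, n = 3) in WT with vehicle, 6607 ± 1405 in PKN2 KO with vehicle, 4235 ± 1073 in WT with TGF-β1 and 5805 ± 1969 in PKN2 KO with TGF-β1. The log2 fold change of PKN2 KO against WT was 0.45 in vehicle (95% interval -0.17 to 1.07, adjusted p = 0.369, limma) and 0.43 with TGF-β1 (-0.19 to 1.05, adjusted p = 0.390). With TGF-β1 against vehicle it was -0.20 in WT PSCs (-0.82 to 0.42, adjusted p = 0.609) and -0.22 in PKN2 KO PSCs (adjusted p = 0.565). None of these passed the threshold in this model, and neighbours in the order of level overlapped. With the replicate letter as a block, both genotype comparisons passed it, at 0.45 and 0.43, but so did 87 and 101 genes of the panel. No label ties the letters to a culture, so the block served only as an alternative.

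On another scale the libraries of Itgb5 lay closer together. Taken as a share of the reads on the panel, Itgb5 made up 0.424% ± 0.0479 (SD, n = 3) in WT with vehicle, 0.551% ± 0.0237 in PKN2 KO with vehicle, 0.309% ± 0.0224 in WT with TGF-β1 and 0.414% ± 0.0407 in PKN2 KO with TGF-β1. The coefficient of variation within a group was 4.30% to 11.3% for these shares and 21.3% to 33.9% for the normalised counts. This was not particular to Itgb5: for Itgb1 it was 8.30% to 13.9% for shares and 23.9% to 36.1% for normalised counts. By share of reads the groups did not overlap in any of the 4 comparisons: both genotype comparisons had PKN2 KO above WT, and both treatment comparisons had TGF-β1 below vehicle. On that scale 23.5% (vehicle) and 24.4% (TGF-β1) of the genes tested had PKN2 KO above WT without overlap, and 41.2% had TGF-β1 below vehicle in each genotype. Counting error was small beside these differences, with an exact 95% binomial interval of 0.363% to 0.383% for the lowest WT library with vehicle.

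With total count scaling, limma called Itgb5 higher in the PKN2 KO groups, in vehicle (log2 fold change 0.39, adjusted p = 0.023) and with TGF-β1 (0.42, adjusted p = 0.00922), and called it lower with TGF-β1 in WT (-0.45, adjusted p = 0.00227) and in PKN2 KO PSCs (-0.42, adjusted p = 0.00420). The same scaling called 14.3% and 17.6% of all genes higher in the PKN2 KO groups and 39.9% and 37% lower with TGF-β1 in WT and PKN2 KO PSCs. This scaling also moved the median log2 fold change of all 238 genes, from 0.21 to 0.15 and from 0.13 to 0.12 for the genotype comparisons in vehicle and with TGF-β1, and from 0.00 to -0.25 in WT and from -0.14 to -0.34 in PKN2 KO PSCs for TGF-β1. Relative to that median, Itgb5 differed by 0.24 and 0.30 between genotypes and by -0.20 and -0.08 with TGF-β1, on either scaling, a distance that a change of library factors leaves nearly fixed by construction. The calls for Itgb5 thus differed between the scalings, and its genotype calls also differed with the replicate letter as a block.

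**Figure D2:**
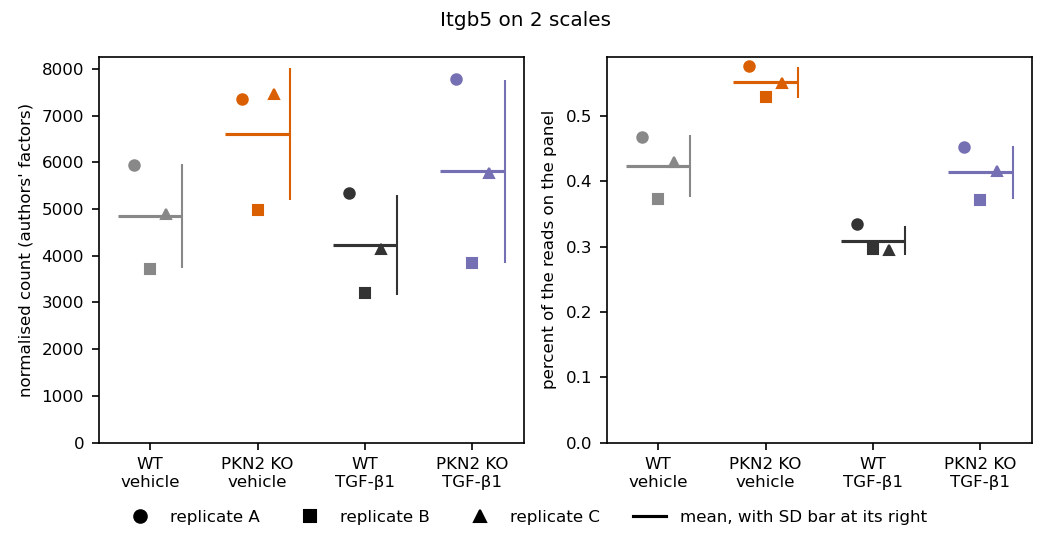
Itgb5 in the 3 libraries of each group as normalised counts (left, authors' factors) and as percent of the reads on the panel (right), both axes from 0, with symbols for replicates, a line at the mean and a bar of 1 SD at its right. The groups overlap in the left panel, whereas in the right panel PKN2 KO lies above WT within each treatment (0.528% to 0.576% against 0.373% to 0.468% in vehicle).

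Itgbl1, which has been linked to matrix and metastasis in several tissues, was above its WT level in PKN2 KO PSCs under both treatments and was lower with TGF-β1 in WT PSCs. The normalised counts of Itgbl1 in replicates A, B and C were 72.0, 70.3 and 75.9 in WT PSCs with vehicle, from 61, 104 and 77 reads. PKN2 KO PSCs with vehicle had 203.9, 120.1 and 202.4, from 174, 170 and 191 reads. The lowest PKN2 KO library was well above the highest WT library, and groups were apart in vehicle, in either direction, for 32.4% of the genes tested. With TGF-β1 the counts were 27.1, 26.1 and 32.7 in WT PSCs, from only 23, 33 and 34 reads. The counts in PKN2 KO PSCs with TGF-β1 were 166.9, 78.2 and 162.3, from 122, 91 and 133 reads. The genotypes did not overlap with TGF-β1 either, as for 28.2% of the genes tested in either direction. The TGF-β1 and vehicle libraries were apart in WT PSCs, as for 55.9% of the genes tested in either direction, and overlapped in PKN2 KO PSCs. As a share of the reads on the panel they were apart in PKN2 KO PSCs too, at 0.00754% to 0.0117% with TGF-β1 and 0.0127% to 0.0159% with vehicle. On that scale 41.2% of the genes tested had TGF-β1 below vehicle without overlap in PKN2 KO PSCs.

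The means of Itgbl1 were 72.7 ± 2.90 (SD, n = 3) in WT with vehicle, 175 ± 48.0 in PKN2 KO with vehicle, 28.6 ± 3.54 in WT with TGF-β1 and 136 ± 49.9 in PKN2 KO with TGF-β1. PKN2 KO PSCs had 2.33-fold more Itgbl1 in vehicle (log2 fold change 1.22, 95% interval 0.53 to 1.90, adjusted p = 0.018, limma) and 4.39-fold more with TGF-β1 (1.45 to 2.82, adjusted p = 2.84e-04, limma). In WT PSCs TGF-β1 left 0.400 of the vehicle level (log2 fold change -1.32, -2.01 to -0.64, adjusted p = 0.00269, limma). In PKN2 KO PSCs the level with TGF-β1 was 0.755 of that with vehicle, which did not pass the threshold (log2 fold change -0.41, -1.09 to 0.28, adjusted p = 0.343), and leaving out 1 library moved this log2 fold change between -0.66 and -0.051. With total count scaling it was -0.60 (adjusted p = 0.053, limma). The interaction was 0.92 (-0.05 to 1.88) with an unadjusted p of 0.062 and an adjusted p of 0.490 by limma, so a difference between the genotypes in this response was not called.

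The vehicle call for Itgbl1 was lost without WT vehicle replicate C (log2 fold change 1.25, adjusted p = 0.061, limma) and without PKN2 KO vehicle replicate A (1.09, adjusted p = 0.091) or C (1.10, adjusted p = 0.088). The call with TGF-β1 and the fall with TGF-β1 in WT PSCs were kept in each of the 12 fits without 1 library. In order of level the groups ran from WT with TGF-β1, through WT with vehicle and PKN2 KO with TGF-β1, to PKN2 KO with vehicle. Of these neighbours only the upper 2 groups overlapped.

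The 4 genes were chosen with earlier results of these data known, so the counts that follow are descriptions only and show no enrichment. Counted over the 4 genes, 2 of 4 (Itgb3 and Itgbl1) were called higher with PKN2 deletion in vehicle, where 10.9% of all genes tested were called higher and 13.9% in either direction. With TGF-β1, 1 of 4 (Itgbl1) was called higher, against 8.82% of all genes, or 15.1% in either direction. TGF-β1 changed 3 of 4 in WT PSCs, with Itgb1 and Itgb3 up and Itgbl1 down, against 50.8% of all genes (23.9% up and 26.9% down), and 2 of 4 in PKN2 KO PSCs, against 48.7%. With the authors' factors and 1 mean per group alone in the model, none of the 4 had a called interaction by limma, DESeq2 or edgeR, none had an unadjusted p under 0.05 in limma, and 3.36% of all genes were called by limma. With TMM, median-of-ratios and total count scaling the interaction of Itgbl1 was 0.99, 1.02 and 0.96 (unadjusted p = 0.021, 0.017 and 0.017, limma). That of Itgb3 with total count scaling was -0.93 (unadjusted p = 0.043, limma). None of these was called (adjusted p of 0.198 or more, limma).

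**Figure D3:**
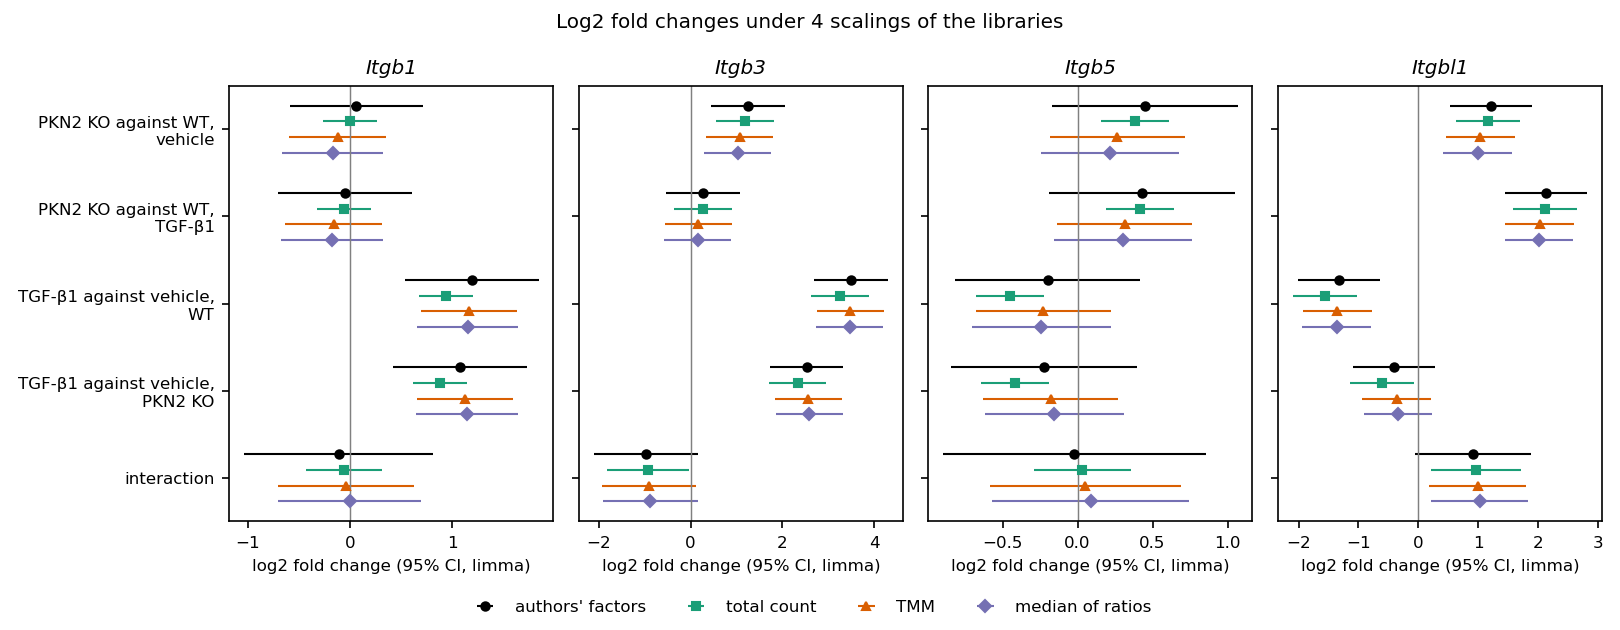
Log2 fold changes with 95% intervals from limma (horizontal axes) of the 4 genes in the 4 comparisons and the interaction (rows), with colours and symbols for the authors' factors, total count, TMM and median-of-ratios scaling. The intervals of Itgb5 exclude 0 only with total count scaling, whereas those of the TGF-β1 comparisons for Itgb1 and Itgb3 and of both genotype comparisons for Itgbl1 exclude 0 under all 4.

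A ratio of 2 genes within a library does not depend on the factor of that library, so the balance of the beta chains was compared next. The ratio of Itgb3 to Itgb5, whose chains both pair with αv, was 0.853% ± 0.311 (SD, n = 3) in WT with vehicle and 1.47% ± 0.298 in PKN2 KO with vehicle. With TGF-β1 it was 11.0% ± 1.41 in WT and 9.84% ± 0.303 in PKN2 KO PSCs. Because amplicons differ in yield, the percentages have meaning only between groups. The ratio was 13.4-fold higher with TGF-β1 in WT and 6.78-fold higher in PKN2 KO PSCs, with no overlap of libraries, and the genotypes overlapped under both treatments.

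The ratio of Itgb5 to Itgb1 gave narrow groups. It was 34.7% ± 2.65 in WT with vehicle, 45.2% ± 1.79 in PKN2 KO with vehicle, 13.2% ± 0.444 in WT with TGF-β1 and 18.4% ± 0.883 in PKN2 KO with TGF-β1. PKN2 KO PSCs thus had a ratio 1.31-fold that of WT PSCs in vehicle and 1.39-fold with TGF-β1, and TGF-β1 lowered it to 0.381 of vehicle in WT and 0.406 in PKN2 KO PSCs. In each of these 4 comparisons the libraries of the 2 groups did not overlap.

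The ratio of Itgb3 to Itgb1 was 0.291% ± 0.0903 in WT with vehicle, 0.670% ± 0.157 in PKN2 KO with vehicle, 1.44% ± 0.149 in WT with TGF-β1 and 1.81% ± 0.0394 in PKN2 KO with TGF-β1. PKN2 KO was above WT by 2.32-fold in vehicle and by 1.25-fold with TGF-β1, and TGF-β1 was above vehicle by 5.09-fold in WT and 2.75-fold in PKN2 KO, in each case without overlap. Two-sided exact permutation tests of the log2 ratios gave p = 0.1 (adjusted p = 0.12 over the 12 ratio comparisons) wherever libraries did not overlap, which is the smallest p that 3 libraries against 3 allow, and p = 0.2 and 0.3 for Itgb3 to Itgb5 between genotypes in vehicle and with TGF-β1. No ratio comparison could therefore pass a threshold of 0.05. How often ratios of other genes on the panel separate in this way was not examined.

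**Figure D4:**
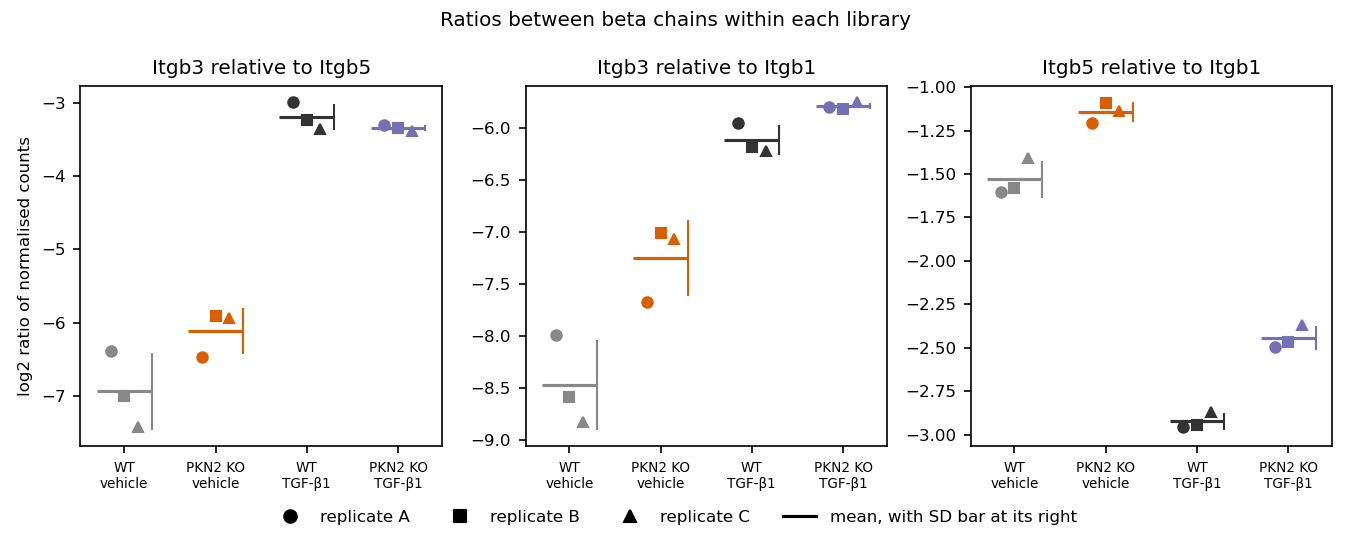
Log2 ratios of normalised counts within each library (vertical axes) for Itgb3 to Itgb5, Itgb3 to Itgb1 and Itgb5 to Itgb1 in the 4 groups, with symbols for replicates, a line at the mean and a bar of 1 SD at its right. Itgb5 to Itgb1 has 4 separate groups, with TGF-β1 below vehicle and PKN2 KO above WT within each treatment.

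The other beta chains tested were lower with TGF-β1. Of 5 further beta chain genes, 4 were on the panel and 3 were tested (Itgb2, Itgb7 and Itgb8), and all 3 were called lower with TGF-β1 in WT and in PKN2 KO PSCs, with median log2 fold changes of -2.06 and -2.16 against 0.00 and -0.14 for all genes, of which 26.9% and 29% were called lower. Itgb7, a partner of α4 and αE, fell from a mean normalised count of 238 to 46.7 in WT (log2 fold change -2.31, adjusted p = 1.51e-05, limma) and from 280 to 61.0 in PKN2 KO PSCs (-2.16, adjusted p = 3.61e-05). Itgb8, whose β8 chain with αv binds latent TGF-β, fell from 9.04 to 1.82 in WT (-2.06, adjusted p = 0.020) and from 22.4 to 2.92 in PKN2 KO PSCs (-2.98, adjusted p = 0.00218), at no more than 32 reads per library, so its fitted values depend on the pseudocount. Itgb2, the beta chain of leukocyte integrins, fell from 19.1 to 7.18 in WT (-1.31, adjusted p = 0.012) and from 21.5 to 6.11 in PKN2 KO PSCs (-1.65, adjusted p = 0.00291). Its reads were also low, at no more than 34 per library. Itgb2 and Itgb8 reached the minimum normalised count for testing only in vehicle libraries, whereas Itgb7 reached it under both treatments. The filter thus admitted Itgb2 and Itgb8 through the groups where they were higher. The count of 3 genes called lower and the medians therefore depend in part on the filter. Itgb2 is itself 1 of the 8 leukocyte markers, whose sum lay between 16.3 and 33.9 in vehicle and between 5.77 and 13.4 with TGF-β1, and the part of such cells in the fall of Itgb2 was not tested. Itgb6 had at most 5 reads in a library and was not tested. None of the 3 genes tested was called between genotypes in vehicle or with TGF-β1.

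**Figure D5:**
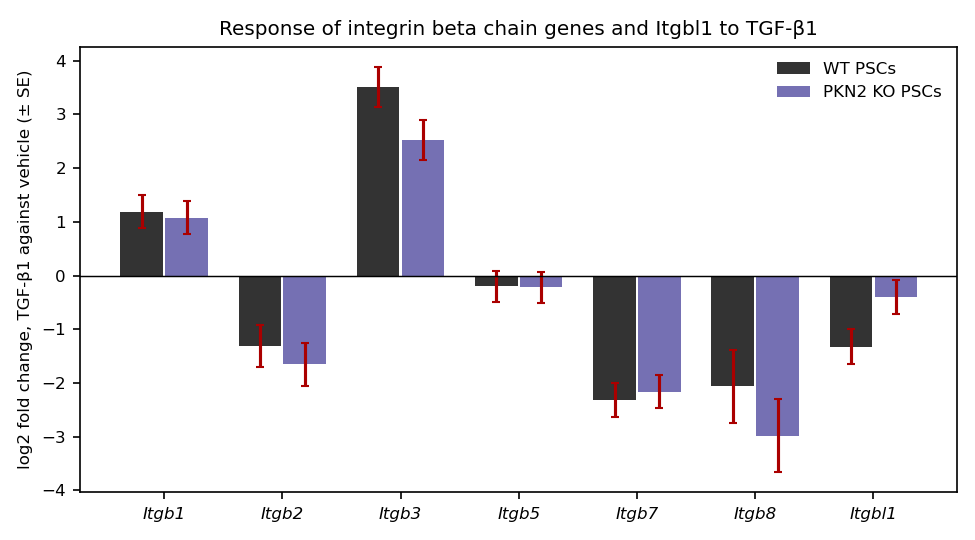
Log2 fold change of TGF-β1 against vehicle (vertical axis, bars from 0, error bars of 1 SE from limma) for the 6 beta chain genes tested and Itgbl1, in WT and PKN2 KO PSCs. Itgb1 and Itgb3 are above 0 and Itgb2, Itgb7 and Itgb8 below it in both genotypes, and Itgb5 lies within 1 SE of 0.

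Receptors need an alpha chain, and the partners of β1 split in both directions. Of 12 alpha chain genes that pair with β1, 11 were tested and Itga4 had no read. TGF-β1 raised 4 and lowered 3 in WT PSCs, and raised 3 and lowered 5 in PKN2 KO PSCs, with median log2 fold changes of -0.46 and -0.20 against 0.00 and -0.14 for all genes. Of all genes, 23.9% were called higher and 26.9% lower in WT PSCs, and 19.7% and 29% in PKN2 KO PSCs. Itga5, the fibronectin receptor chain, rose from a mean normalised count of 2985 to 12800 in WT (log2 fold change 2.10, adjusted p = 4.47e-07, limma) and by 1.86 in PKN2 KO PSCs (adjusted p = 1.80e-06). Itga2, a collagen receptor chain, rose by 3.34 in WT and 3.14 in PKN2 KO PSCs on the log2 scale. Its mean normalised counts with vehicle were only 3.61 and 4.78, so these values depend on the pseudocount. Itga3 and Itga6, chains of laminin receptors, were lower by log2 fold changes of -1.75 and -1.13 in WT and of -2.12 and -0.92 in PKN2 KO PSCs. Chains for the same kind of ligand also went opposite ways: Itga7, another laminin receptor chain, rose by log2 fold changes of 2.50 and 1.27 in the 2 genotypes, whereas Itga11, another collagen receptor chain, had log2 fold changes of -3.57 and -6.27. Itga2 reached the minimum normalised count for testing only in libraries with TGF-β1, and Itga9 and Itga11 only in vehicle libraries. The filter thus admitted these genes through the groups where they were higher. The counts of alpha chains raised and lowered and their medians therefore depend in part on the filter.

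Between genotypes, 1 of these 11 genes was called in each treatment, against 13.9% of all genes in vehicle and 15.1% with TGF-β1. Itga7 was higher in PKN2 KO PSCs in vehicle, at 177 ± 41.1 (SD, n = 3) against 56.9 ± 7.27 (log2 fold change 1.60, adjusted p = 0.00111, limma). Itga11 was lower in PKN2 KO PSCs with TGF-β1, at 1.27 ± 1.29 against 7.87 ± 2.07 (log2 fold change -2.12, adjusted p = 0.00284, limma), both near the limit of detection, where the fitted value depends on the pseudocount. It was also the only one of the 11 with a called interaction (-2.69, adjusted p = 0.026).

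Itgav, the αv chain that β1, β3 and β5 share, rose with TGF-β1 in WT PSCs from 12590 ± 3912 to 22330 ± 6411 (SD, n = 3; log2 fold change 0.83, adjusted p = 0.030, limma). In PKN2 KO PSCs it was 14480 ± 2755 with vehicle and 19450 ± 5507 with TGF-β1 (log2 fold change 0.40, adjusted p = 0.312), and the interaction was not called (-0.42, adjusted p = 0.796). Itga2b, the platelet partner of β3, was lower with TGF-β1 in both genotypes (-1.30, adjusted p = 0.015, and -1.57, adjusted p = 0.00516). Thus of the 2 αv and αIIb genes, 1 rose and 1 fell in WT PSCs, and neither was called between genotypes.

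Among 9 matrix ligand genes of αvβ3 or αvβ5, 8 were tested, and Vtn had at most 2 reads in a library. TGF-β1 raised 5 (Thbs1, Tnc, Postn, Edil3 and Fbn1) and lowered Spp1, the gene of osteopontin, in WT PSCs. It raised 2 (Tnc and Edil3) and lowered Spp1 in PKN2 KO PSCs. The median log2 fold changes of the 8 were 1.09 in WT and 0.40 in PKN2 KO PSCs, again against 0.00 and -0.14, and 23.9% and 19.7% of all genes were called higher. Edil3, whose RGD sequence binds αvβ3 and αvβ5, rose by 3.65 and 3.12 on the log2 scale, and Tnc, which encodes tenascin C, by 3.18 and 3.27. None of the 8 was called between genotypes in vehicle, and with TGF-β1 Tgfbi was higher in PKN2 KO PSCs (0.98, adjusted p = 0.021, limma) and Thbs1, the gene of thrombospondin 1, was lower (-0.90, adjusted p = 0.011).

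Among 17 ligand genes of β1 integrins, 13 were tested. All encode matrix proteins except Vcam1, which encodes an adhesion molecule of the cell surface. PKN2 KO PSCs had 3 higher and none lower in vehicle, and the same 3 genes (Col4a1, Col4a2 and Lama5, all of the basement membrane) were higher with TGF-β1, against 10.9% and 8.82% of all genes called higher. Their log2 fold changes were 0.94, 0.95 and 1.95 in vehicle and 0.99, 0.96 and 1.95 with TGF-β1, while the medians of the 13 were 0.12 and 0.17 against 0.21 and 0.13 for all genes. TGF-β1 raised Lamb1, Lamb3 and Tnc and lowered Lama5, Lamb2 and Vcam1 in both genotypes. Lamb3 reached the minimum normalised count for testing only in libraries with TGF-β1, at no more than 28 reads per library. The filter thus admitted Lamb3 through the groups where it was higher, and its fitted values depend on the pseudocount. The count of these genes raised depends in part on the filter. Lamb3 is also 1 of the 7 epithelial markers, whose sum was 5.86 to 26.1 in vehicle and 24.8 to 60.2 with TGF-β1, and the part of such cells in its rise was not tested. Of the 2 tetraspanins that bind integrins, Cd9 was lower with TGF-β1 (-0.79 in WT, adjusted p = 0.00636, and -0.58 in PKN2 KO PSCs, adjusted p = 0.038, limma) and Cd151 was not called in any comparison.

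For each of the 4 genes, the 237 other genes tested were ranked by the root mean square difference of log2(normalised count + 1) over the 12 libraries, after centring each gene on its own mean. The profiles most like that of Itgb1 were those of Col5a2 (0.17), Lamb1 (0.18) and Mmp14 (0.19), a collagen chain, a laminin chain and a membrane protease. Itgb5 was nearest to Hspg2 (0.14), Lamc1 (0.16) and Cercam (0.18), the first 2 of which encode basement membrane proteins. Itgb3 was nearest to Col18a1 (0.29), Edil3 (0.34) and Alcam (0.57), and Itgbl1 to Col15a1 (0.37), Serpinb8 (0.39) and Tgfbi (0.59). The last 2 sets were farther from their gene. The factor of a library enters both genes of a pair alike and so cancels in these distances, apart from the pseudocount. The distances are descriptions only.

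Col15a1, a basement membrane collagen, had mean normalised counts of 8.66, 31.4, 3.59 and 23.0 in WT with vehicle, PKN2 KO with vehicle, WT with TGF-β1 and PKN2 KO with TGF-β1, the same order of groups as Itgbl1. Its WT levels were low, so their log2 values and its distance depend on the pseudocount. Serpinb8, a protease inhibitor, had 420, 807, 217 and 841 in the same groups, and unlike Itgbl1 its interaction was called (1.01 on the log2 scale, adjusted p = 0.026, limma). Col18a1, the precursor of endostatin, had 368, 856, 3072 and 4941, which follows the order of Itgb3, and its genotype difference in vehicle was just short of the threshold (log2 fold change 1.28, adjusted p = 0.051, limma). Hspg2, which encodes perlecan, had 3496, 5871, 3395 and 4487, and like Itgb5 none of its comparisons was called.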

How the data were processed

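Targeted RNA libraries of 12 PSC samples were analysed, in 4 groups taken from the sample labels. The authors deposited raw read counts per gene and 2 tables of normalised counts for 420 genes listed by Ensembl identifier. The normalised counts are a signal that the authors made by scaling every library with a factor from reference genes, with DESeq2 1.32, and the submitters' processing notes also name STAR and mm10. All 420 identifiers were matched to a symbol, and 77 genes had no read. The 6 raw columns that share a repeated name were not used. Dividing each normalised column by its step gave reads that were whole within 0.001 and equal to all 6 raw columns used, and these recovered reads served totals, other scalings and count tests.

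The 238 genes that reached a normalised count of 10 in 3 or more libraries were tested with limma 3.58.1 (trend and robust eBayes, R 4.3.3) on log2(normalised count + 1), with 1 mean per group, 5 contrasts and Benjamini-Hochberg adjustment at 0.05. Fold changes on this scale understate those of low genes. Ratios were compared with exact permutation tests (SciPy 1.17.1). Alternatives were TMM, median-of-ratios and total count scaling, edgeR 4.0.16 and DESeq2 1.42.0 on recovered reads, pseudocounts of 0.5 and 5, other filters, no variance trend, the replicate letter as a block, and each library left out. The 4 genes and the gene lists were chosen with earlier results of these data known. Named genes were these 4, the listed genes past the threshold (up to 5 per list and comparison) and the 3 nearest profiles of each gene. The steps were tested on simulated data. Between 1074095 and 1473153 reads per library set the precision. The Poisson and binomial intervals cover counting error only, and the sources used here do not say whether molecular tags were counted. The intervals of limma rest on the spread between libraries.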

Additional observations from a re-analysis of the deposited data

How the results depend on the processing

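The rise of Itgb1 and Itgb3 with TGF-β1 in both genotypes, the fall of Itgbl1 in WT PSCs and the higher Itgbl1 in PKN2 KO PSCs under both treatments kept direction and call in the 13 alternatives run on all libraries. For Itgb3 between genotypes in vehicle, the log2 fold change missed the threshold with TMM (1.07), median-of-ratios factors (1.03), edgeR (1.19) and no variance trend (1.25). Values near 0 changed sign: Itgb1 between genotypes in vehicle was -0.12 with TMM, -0.17 with median-of-ratios factors and -0.0002487 with total count scaling (also with the block and no trend), and the interaction of Itgb5 was 0.051, 0.087 and 0.032 with these scalings (0.032 also with the block and no trend), 0.0084 with edgeR and 0.0084 with DESeq2. Total count scaling, alone or with the block and no trend (chosen after seeing the data), brought Itgb5 past the threshold in vehicle (0.39), with TGF-β1 (0.42) and for TGF-β1 in WT (-0.45) and PKN2 KO PSCs (-0.42), and the combined setting did so for Itgbl1 with TGF-β1 in PKN2 KO PSCs (-0.60).

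The letters A, B and C were not accepted as pairs, since no label ties them to a line or culture and letter C showed little correlation. Over 18 same-lettered pairs the correlation of deviations ran from -0.23 to 0.70 (mean 0.39), 13 were over 0.1, and 13 pairs correlated best with their own letter of the 3. The 12 pairs of letters A and B ran from 0.348 to 0.701 and were all among these 13, and the 6 pairs of letter C ran from -0.23 to 0.142. Libraries of letters A and B thus shared deviations across groups. The main model leaves these in its spread, so which comparisons were called depends on this choice. With the letter as a replicate block, Itgb5 passed the threshold between genotypes in vehicle (0.45) and with TGF-β1 (0.43), with and without a trend, and the interactions of Itgb3 (-0.98) and Itgbl1 (0.92) passed it with the trend but not without (adjusted p = 0.182 and 0.104). The block with the trend gave infinite prior degrees of freedom for 197 of 238 genes, and without the trend their median was 2.40. Genes called between genotypes numbered 33 in vehicle and 36 with TGF-β1, and 87 and 101 with the block, 71 and 90 with the block and no trend, and 68 and 100 with total count scaling added; with TGF-β1 they were 56, 55 and 65 with TMM, median-of-ratios and total count scaling. Called interactions numbered 8, against 42, 17 and 23 in the 3 block fits and 4 with no trend. The ratios moved by less than 1 SD with a pseudocount of 1 or with the block.

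Leaving out 1 library, log2 fold changes for PKN2 KO against WT in vehicle ran from -0.091 to 0.28 for Itgb1, from 1.04 to 1.68 for Itgb3 (called in 5 of 12 fits), from 0.27 to 0.64 for Itgb5 and from 1.09 to 1.47 for Itgbl1 (9 of 12). With TGF-β1 they ran from -0.32 to 0.20, from 0.01 to 0.56, from 0.19 to 0.69 and from 1.95 to 2.49 (12 of 12 for Itgbl1). For TGF-β1 in PKN2 KO PSCs, Itgb5 ran from -0.46 to 0.045, and its interaction from -0.26 to 0.25, as did that of Itgb1 from -0.38 to 0.14. Genes called ran from 18 to 38 in vehicle, 26 to 48 with TGF-β1 and 0 to 11 for the interaction. Where 1 group is left with 2 libraries, the spread is pooled over groups. Low reads (23 to 34 for Itgbl1 in WT with TGF-β1, 29 to 60 for Itgb3 in WT with vehicle) limit those 2 levels.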
